A study of Mus musculus with 6 samples.

Results

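The genes described here make up the core RNA-interference machinery, the proteins through which a cell makes microRNAs and uses microRNAs and siRNAs to silence matching mRNAs. A fixed list of 10 Ensembl identifiers was read from a table of 30543 genes: DROSHA (ENSG00000113360), XPO5 (ENSG00000124571), DICER1 (ENSG00000100697), TARBP2 (ENSG00000139546), AGO1 (ENSG00000092847), AGO2 (ENSG00000123908), AGO3 (ENSG00000126070), AGO4 (ENSG00000134698), TNRC6A (ENSG00000090905) and TNRC6B (ENSG00000100354). All 10 passed the filter on low counts, which kept 15736 genes. The values come from RNA-seq of polyadenylated RNA from CFPAC-1, a human pancreatic adenocarcinoma (PAAD) cell line, although the labels give the mouse as organism. Every identifier in the table was human. Cells transfected with an siRNA against KRT7 (si-KRT7, 3 libraries) were compared with cells given a control siRNA without that target (si-Control, 3 libraries), so both groups received an siRNA that enters this same machinery. The dose, the time after transfection and the KRT7 duplex used were not given in the sources used here, and no untransfected group is compared.

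In the canonical pathway, DROSHA cuts the primary microRNA transcript in the nucleus and exportin 5, the product of XPO5, carries the resulting hairpin to the cytoplasm. DICER1, with its partner protein TARBP2, trims the hairpin to a short duplex, 1 strand of which is loaded into an Argonaute protein (AGO1 to AGO4). The Argonaute finds target mRNAs by base pairing and recruits a GW182 scaffold (TNRC6A or TNRC6B), which brings in the enzymes that shorten the poly(A) tail. AGO2 is the human Argonaute known for efficient slicing of a fully matched target, which is how a transfected siRNA lowers its target mRNA.

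The libraries held between 28208896 and 36315802 counts, the smallest being si-KRT7 replicate 2, and each member had between 504 and 5055 counts per library, which gives a counting error of at most 4.45%. Replicate 2 of si-KRT7 stood apart. Across the genes tested, its log2 CPM had a Pearson correlation of 0.982 with both other si-KRT7 libraries, below the 0.992 between replicates 1 and 3 and the 0.983 to 0.986 between libraries of different groups. The difference of each gene is therefore given with and without it. Among genes past an adjusted p of 0.05 in edgeR and a limit on the mean count, the identifier ENSG00000135480 had the largest decrease. It kept 12.2%, 18.3% and 12.6% of its mean si-Control level in si-KRT7 replicates 1, 2 and 3, so replicate 2 shared that decrease. No table used here pairs the other identifiers with gene names, so KRT7 and markers of ductal cells were not analysed by name. Nothing in the labels says that the replicates are separate cultures, so the p-values measure the spread between these libraries, which may be technical. The study's legend for the figure with its knockdown assays and RNA-seq names 3 independent experiments, without saying whether this covers the libraries.

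With all 6 libraries, 0 of the 10 genes passed an adjusted p of 0.05 in edgeR's quasi-likelihood test, where 2.07% of all genes tested did, and 0 also passed an absolute log2 fold change of 1, where 0.292% of all genes did. At an unadjusted p under 0.05 in edgeR there were 2 members, AGO2 and DROSHA, both higher in si-KRT7 cells, where 18.6% of all genes passed in either direction and 9.48% in this direction. The DESeq2 Wald test called 1 member, AGO2, where it called 7.30% of all genes. The levels of the same 2 genes, AGO2 and DROSHA, did not overlap between the groups, while 24.4% of all genes showed no overlap and 11.3% showed none with si-KRT7 higher. Of the 10 log2 fold changes, 5 were positive and 5 negative, with a median of -0.02 against 0.01 for all genes, and their median size was 0.15 against 0.18 (0.17 against 0.25 without si-KRT7 replicate 2). Without si-KRT7 replicate 2, 5 of the 10 passed the adjusted p, which is close to the 42.9% of all genes that passed in that fit.

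**Figure D1:**
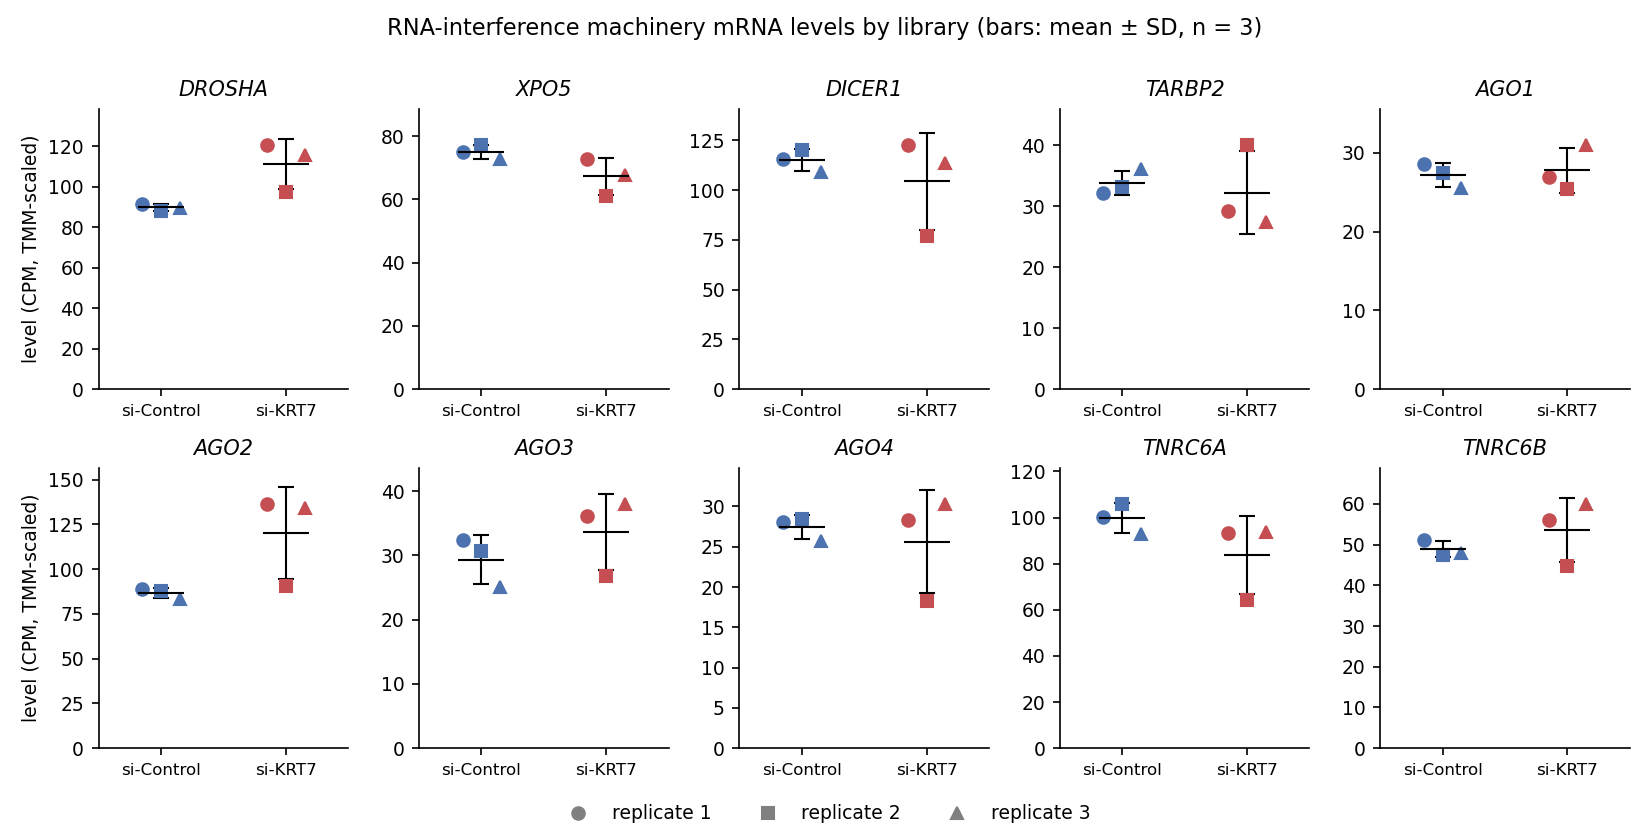
Level of each of the 10 mRNAs in every library, in CPM (counts relative to the TMM-scaled library size), on axes that start at 0. Points are libraries, with the replicate number given by the marker shape, and bars are the mean ± SD of 3 libraries. The si-Control points lie close together, whereas si-KRT7 replicate 2 (squares) lies apart from replicates 1 and 3 in most panels, lowest in 9 of the 10.

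AGO2 showed the largest difference of the 10. Its level, in CPM scaled by edgeR's TMM method, was 88.6, 88.0 and 83.4 in si-Control replicates 1, 2 and 3, and 136, 90.4 and 134 in si-KRT7 replicates 1, 2 and 3. Replicates 1 and 3 of si-KRT7 thus stood well above every si-Control library, whereas replicate 2 lay just above the highest of them. The group means were 86.7 ± 2.84 and 120.2 ± 25.8 CPM (SD, n = 3), a 1.39-fold difference with a 95% interval from 1.09 to 1.76 (log2 fold change 0.47, standard error 0.15, adjusted p = 0.145 in edgeR). An exact permutation test (two-sided) returned p = 0.1, below which a design of 3 against 3 cannot go. In the DESeq2 Wald test the adjusted p was 0.0458. Without si-KRT7 replicate 2 the difference was 1.55-fold (log2 fold change 0.64, standard error 0.04, adjusted p = 2.31e-11 in edgeR).

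The other Argonautes, which bind small RNAs and repress targets mainly without slicing, differed less. AGO3 stood at 32.4, 30.6 and 25.0 CPM in the si-Control replicates and at 36.1, 26.8 and 37.9 CPM in the si-KRT7 replicates. The groups overlapped through si-KRT7 replicate 2 (log2 fold change 0.20, 95% interval from -0.15 to 0.55, adjusted p = 0.535 in edgeR). Without that library AGO3 passed as 1.26-fold higher (adjusted p = 0.00212 in edgeR). AGO4 stood at 28.1, 28.5 and 25.7 CPM in si-Control and at 28.3, 18.3 and 30.2 CPM in si-KRT7 cells. Replicate 2 was here the only library far from the rest, at 66.8% of the si-Control mean, and the sign of the difference turned with it, from -0.10 on the log2 scale (interval from -0.49 to 0.30) with all libraries to 0.09 without it. AGO1 showed the smallest difference of the 10, with 28.6, 27.4 and 25.6 CPM in si-Control and 26.9, 25.5 and 31.0 CPM in si-KRT7 cells. Its log2 fold change was 0.03 with an interval from -0.21 to 0.27, so a difference beyond 1.21-fold upward or to 0.865-fold downward lay outside the interval. Without replicate 2 it was 0.08 (adjusted p = 0.420 in edgeR).

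DROSHA, the nuclear enzyme that starts microRNA processing, was the other gene without overlap. Its levels were 91.5, 88.2 and 89.7 CPM in the si-Control replicates and 120.4, 97.5 and 116 CPM in the si-KRT7 replicates. All 3 si-KRT7 libraries lay above all si-Control libraries, and replicate 2 was again the lowest of the si-KRT7 libraries. The means were 89.8 ± 1.62 and 111 ± 12.2 CPM (SD, n = 3), a 1.24-fold difference with a 95% interval from 1.07 to 1.44 (log2 fold change 0.31, standard error 0.10, adjusted p = 0.139 in edgeR). The exact permutation test returned its smallest value, p = 0.1, and the DESeq2 Wald test gave an adjusted p of 0.0697. Without replicate 2 the difference was 1.31-fold (adjusted p = 5.40e-08 in edgeR). XPO5, the export receptor, stood at 74.8, 77.1 and 72.7 CPM in si-Control and at 72.8, 61.2 and 67.8 CPM in si-KRT7 cells. Replicates 2 and 3 lay below every si-Control library while replicate 1 lay within their range (log2 fold change -0.15, interval from -0.36 to 0.05, adjusted p = 0.406 in edgeR). It did not pass without replicate 2 either (adjusted p = 0.149 in edgeR).

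The cytoplasmic processing pair lay on opposite sides of the si-Control levels in si-KRT7 replicate 2. DICER1, the enzyme that cuts the hairpin, stood at 116, 120.3 and 109 CPM in si-Control and at 122, 76.8 and 114 CPM in si-KRT7 cells. Replicates 1 and 3 lay within or just above the si-Control range and replicate 2 stood at 66.7% of the si-Control mean. The log2 fold change was -0.14 with an interval from -0.51 to 0.22 (adjusted p = 0.688 in edgeR), and 0.03 with an interval from -0.06 to 0.13 without replicate 2. TARBP2, the double-stranded RNA-binding partner of DICER1, stood at 32.2, 33.2 and 36.1 CPM in si-Control and at 29.3, 40.0 and 27.4 CPM in si-KRT7 cells. It was the only member for which replicate 2 was the highest of the 3 si-KRT7 libraries, and replicates 1 and 3 both lay below every si-Control library. With all libraries its log2 fold change was -0.07 (adjusted p = 0.837 in edgeR), and without replicate 2 it was the only member that passed downward, at -0.26 (adjusted p = 0.00486 in edgeR).

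The GW182 scaffolds had log2 fold changes of opposite sign, neither past the test with all libraries. TNRC6A stood at 100.5, 106 and 92.9 CPM in si-Control and at 93.4, 64.4 and 93.8 CPM in si-KRT7 cells. Replicates 1 and 3 lay at the lower edge of the si-Control range and replicate 2 at 64.6% of the si-Control mean, the lowest relative value of any member in any library. Its log2 fold change was -0.25 (interval from -0.58 to 0.08, adjusted p = 0.404 in edgeR) and -0.10 without replicate 2 (adjusted p = 0.124). TNRC6B stood at 51.1, 47.6 and 48.1 CPM in si-Control and at 56.1, 44.7 and 59.9 CPM in si-KRT7 cells. Replicates 1 and 3 lay above and replicate 2 below every si-Control library. The log2 fold change was 0.13 (interval from -0.14 to 0.40, adjusted p = 0.593 in edgeR), and 0.24 without replicate 2, where TNRC6B passed (adjusted p = 0.00130 in edgeR).

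**Figure D2:**
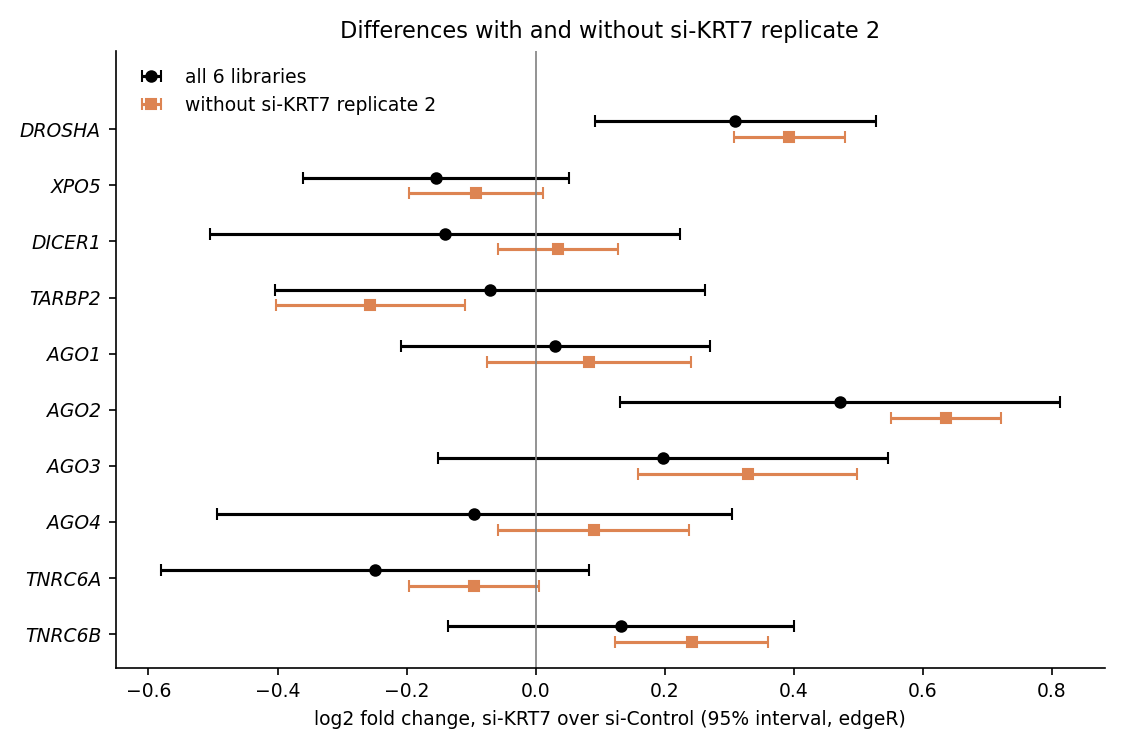
Log2 fold change of si-KRT7 over si-Control for each gene with its 95% interval from edgeR, for all 6 libraries (black circles) and without si-KRT7 replicate 2 (orange squares). With all libraries the intervals of DROSHA and AGO2 lie above 0 before adjustment over the genes tested, and without replicate 2 the intervals narrow and the values of DICER1 and AGO4 change sign.

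Leaving out si-KRT7 replicate 2 thus changed the calls for 5 genes. AGO2, DROSHA, AGO3 and TNRC6B passed as higher, where 20.9% of all genes did, and TARBP2 alone passed as lower, where 22% of all genes did. The number of genes without overlap between the groups was 6 of 10 without that library, against 60.6% of all genes. With any other library left out it was 2 to 4, against 29.3% to 30.4% of all genes. The limma-voom fit that gives each library a quality weight called the same 5 genes, where it called 43.6% of all genes. Fits that left out any other library called 0 of the 10 in edgeR, where they called 0.0372% to 0.542% of all genes. In each of these fits AGO2 and DROSHA were the 2 members at an unadjusted p under 0.05, where 11.4% to 12.8% of all genes were.

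The 10 genes varied more among the si-KRT7 than among the si-Control libraries. The coefficient of variation of the 10 genes had a median of 5.18% among the si-Control libraries and 18.9% among the si-KRT7 libraries, and all genes tested had medians of 6.15% and 16.0%. Replicate 2 was the lowest of the 3 si-KRT7 libraries for 9 of the 10 genes, where this was so for 43.0% of all genes, and it lay below every si-Control library for 6 of them (XPO5, DICER1, AGO1, AGO4, TNRC6A and TNRC6B), where this was so for 36.3% of all genes. The median log2 ratio of the 10 genes to the si-Control mean was 0.07, -0.13 and 0.16 in si-KRT7 replicates 1, 2 and 3, whereas that of all genes was -0.012, 0.0041 and -0.0097. Summed over the 10 genes, the level was 644, 647 and 608 CPM in si-Control and 722, 545 and 712 CPM in si-KRT7 cells. Replicate 2 also had the lowest total count, and the part of depth, of a batch or of the transfection in its position was not tested. In bulk RNA, fewer cells with an mRNA and less of it per cell cannot be told apart.

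**Figure D3:**
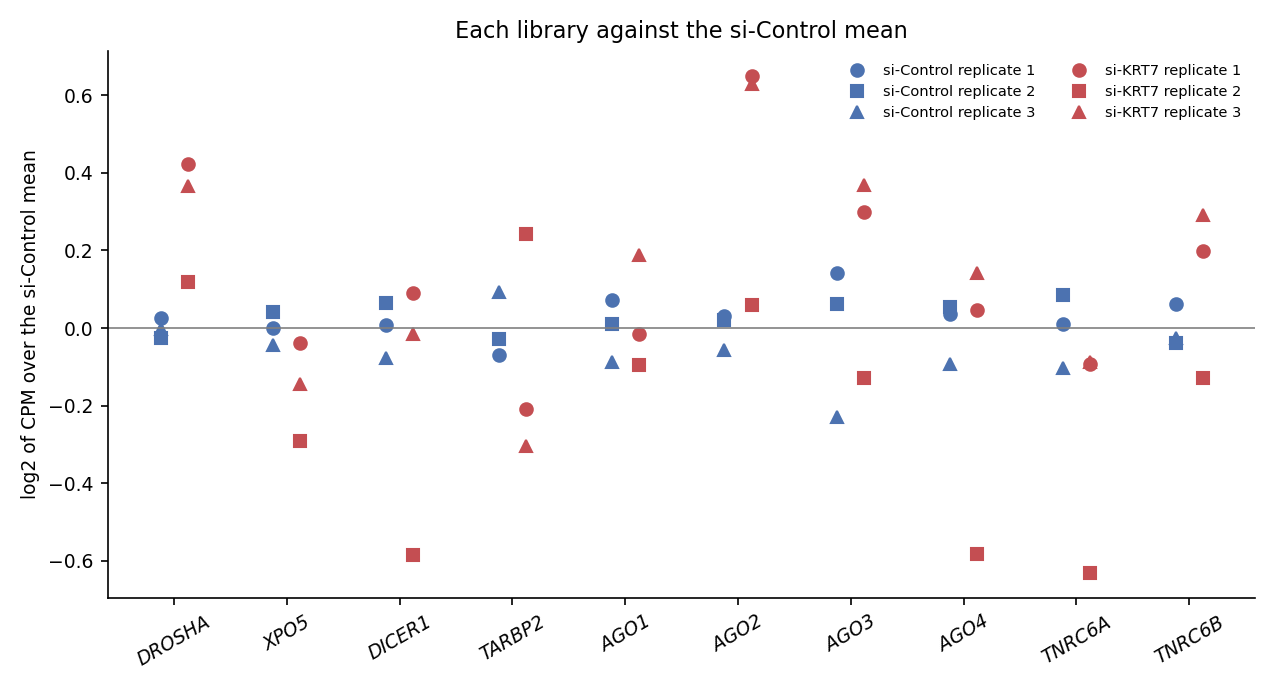
Log2 ratio of each library's CPM to the si-Control mean, by gene, for si-Control (blue) and si-KRT7 (red) libraries, with the replicate number as the marker shape. Replicates 1 and 3 of si-KRT7 run together, highest for AGO2 at 0.65 and 0.63, while replicate 2 drops to -0.58, -0.58 and -0.63 for DICER1, AGO4 and TNRC6A and rises only for TARBP2 and, slightly, for DROSHA and AGO2.

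Ratios between the members within a library do not depend on how libraries are scaled, and several of them separated the groups in all libraries, replicate 2 included. Counts were not corrected for transcript length, so such a ratio is compared between libraries only. AGO2 took 49.9%, 50.4% and 52.2% of the summed AGO1 to AGO4 counts in the si-Control replicates and 59.8%, 56.1% and 57.5% in the si-KRT7 replicates. The nearest libraries were si-Control replicate 3, with a 95% exact binomial interval from 50.8% to 53.6%, and si-KRT7 replicate 2, with one from 54.7% to 57.6%. These intervals cover counting error only. The mean share was 50.8% ± 1.22 in si-Control and 57.8% ± 1.87 in si-KRT7 cells (SD, n = 3), a difference of 6.97 percentage points that was larger than the spread in either group and lay between 5.96 and 7.81 with each library left out in turn. AGO4 took a smaller share in si-KRT7 cells, 12.5%, 11.4% and 13.0% against 15.8%, 16.3% and 16.1%, again with no overlap. The shares are parts of a whole, so a larger AGO2 share leaves less for the other Argonautes. The level of AGO4 itself overlapped between the groups, at 28.3, 18.3 and 30.2 CPM in si-KRT7 against 28.1, 28.5 and 25.7 CPM in si-Control. The shares of AGO1 and AGO3 overlapped between the groups. How often shares within other sets of this size separate the groups was not computed.

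The balance between the GW182 scaffolds differed in the same manner. TNRC6A held 66.3%, 69.0% and 65.9% of the summed TNRC6A and TNRC6B counts in si-Control cells and 62.5%, 59.0% and 61.0% in si-KRT7 cells. The means were 67.1% ± 1.66 and 60.8% ± 1.75 (SD, n = 3), and the difference of -6.22 percentage points lay between -7.04 and -5.27 with each library left out. For each DICER1 count there were 0.790, 0.733 and 0.822 DROSHA counts in si-Control and 0.984, 1.27 and 1.02 in si-KRT7 cells. The mRNA counts of DROSHA relative to those of DICER1 were thus higher in every si-KRT7 library than in any si-Control library. This ratio and the 3 that follow were singled out after their values were seen and were not tested. The TNRC6A share separates the groups exactly when the count ratio of TNRC6A to TNRC6B does. Count ratios separated the groups in 31.3% of pairs among genes with at least 500 counts in every library, so separation alone was common.

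The other ratios set AGO2 against TNRC6A, DICER1 and AGO4. For each TNRC6A count there were 0.882, 0.833 and 0.898 AGO2 counts in the si-Control replicates and 1.46, 1.40 and 1.43 in the si-KRT7 replicates. The ratio in replicate 2 lay with those in replicates 1 and 3, although AGO2 was high in replicates 1 and 3 and TNRC6A was low in replicate 2. For each DICER1 count there were 0.765, 0.731 and 0.765 AGO2 counts in si-Control and 1.11, 1.18 and 1.18 in si-KRT7 cells. For each AGO4 count there were 3.15, 3.09 and 3.24 AGO2 counts in si-Control and 4.80, 4.93 and 4.43 in si-KRT7 cells. The gap between the nearest libraries of the groups was 0.65, 0.54 and 0.45 on the log2 scale for the ratios of AGO2 to TNRC6A, DICER1 and AGO4. A gap at least as wide was seen in 0.726%, 1.35% and 2.30% of the 28769905 pairs among the 7586 genes with at least 500 counts in every library. These ratios had the widest gaps of all 45 pairs of members. The shares are for pairs taken without such a choice, so they are not p-values.

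**Figure D4:**
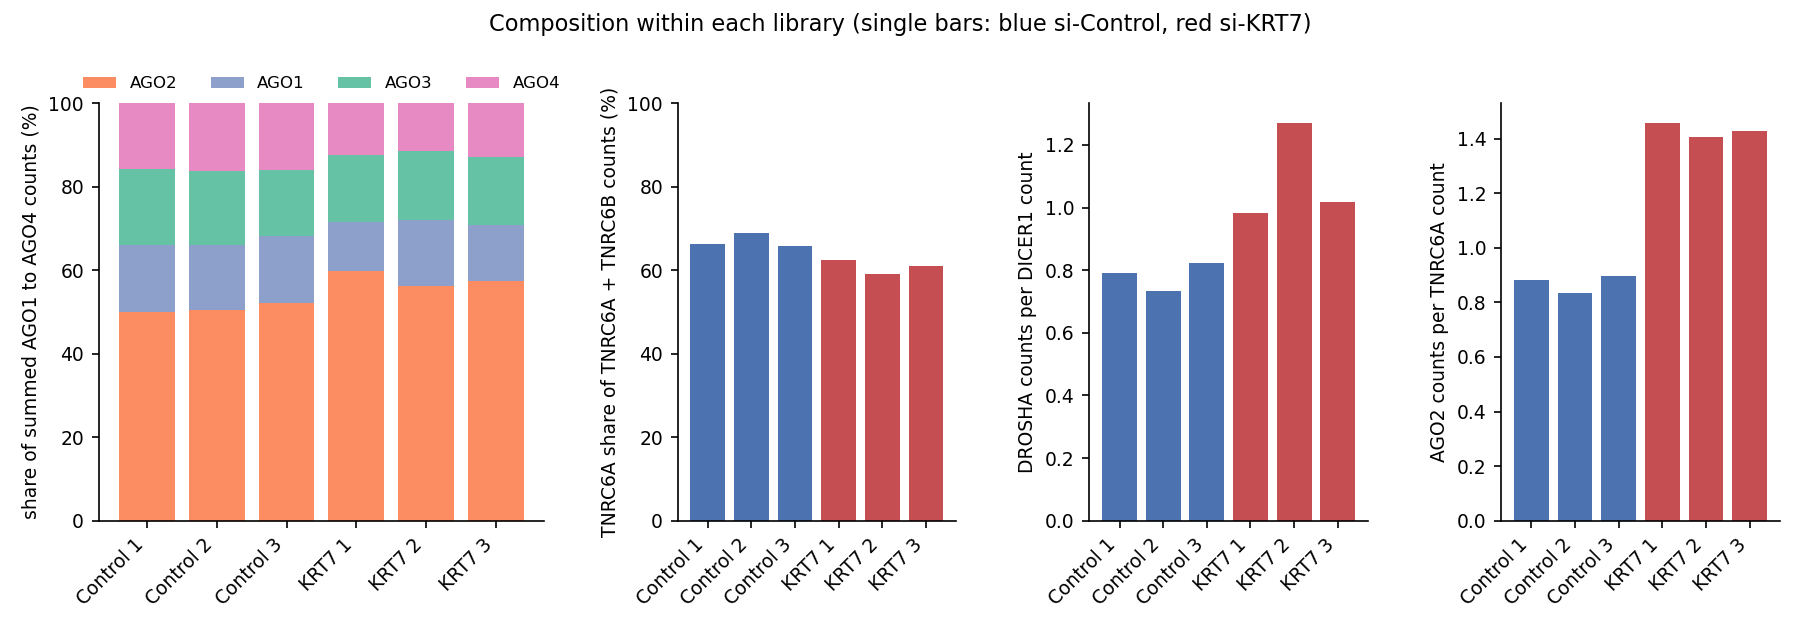
From left to right, share of each Argonaute in the summed AGO1 to AGO4 counts, share of TNRC6A in the summed TNRC6A and TNRC6B counts, DROSHA counts per DICER1 count and AGO2 counts per TNRC6A count, one bar per library, all on axes from 0. Every si-KRT7 library has a larger AGO2 share (56.1% to 59.8% against 49.9% to 52.2%), a smaller TNRC6A share and larger count ratios than every si-Control library.

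Over all 45 pairs of the 10 genes, the count ratio separated the groups without overlap in 24, which is 53.3%. The same was so for 31.3% of pairs among genes with at least 500 counts in every library and for 25.4% of pairs among the 14272 genes with at least 10. Pairs share genes and are not independent, and no test was made. AGO2 and TNRC6A each took part in 7 separating pairs of 9, AGO2 always as the gene that was relatively higher in si-KRT7 cells and TNRC6A always as the one relatively lower. DROSHA was relatively higher in all 6 of its separating pairs and XPO5 relatively lower in all 4 of its own. The ratio of DROSHA to AGO2 overlapped between the groups. TARBP2, whose level in replicate 2 lay above every si-Control library, took part in 0 of the 24. The number of separating pairs was 24 to 27 with any library but si-KRT7 replicate 2 left out and 38 without replicate 2, where 58.8% of the pairs of all genes with at least 10 counts separated. The share without replicate 2 was not computed for genes with at least 500 counts, the set nearer to the members in depth.

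**Figure D5:**
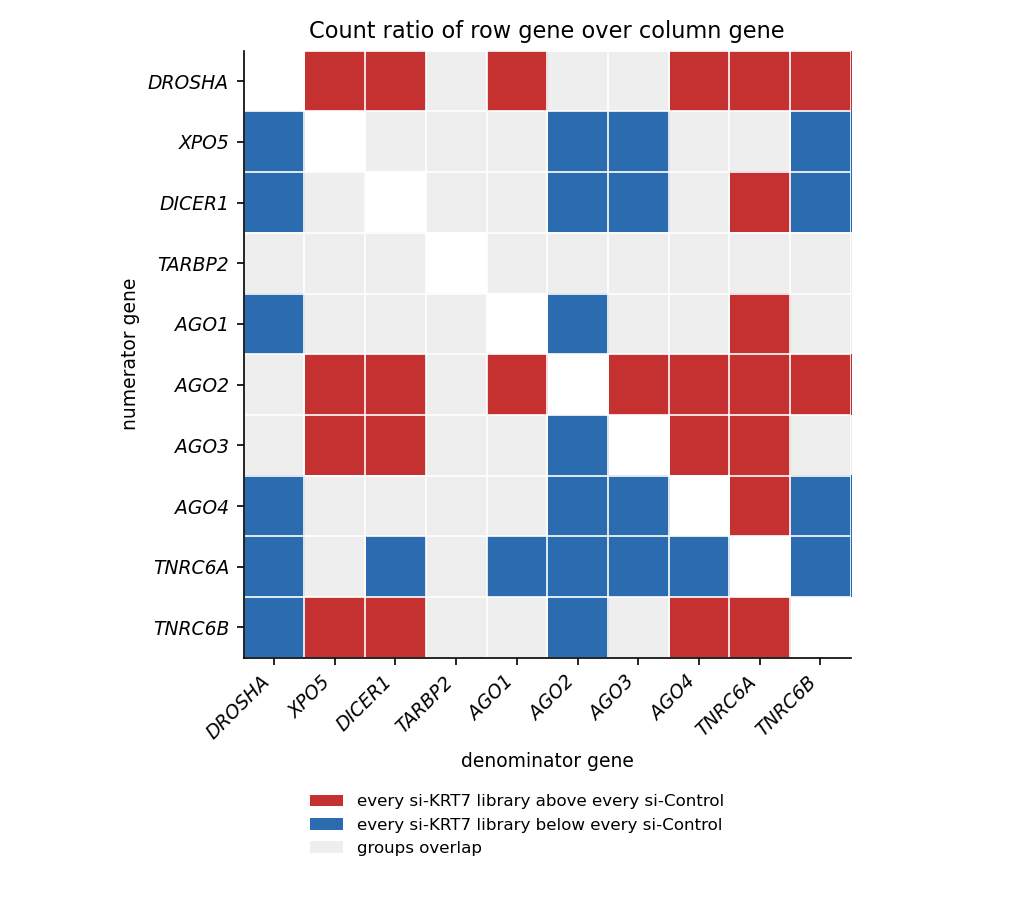
Count ratio of the row gene to the column gene for all pairs of the 10 genes. Red marks ratios for which every si-KRT7 library lay above every si-Control library, blue those for which every si-KRT7 library lay below, and grey those that overlapped. The rows of AGO2 and DROSHA hold red cells and no blue ones, the row of TNRC6A holds blue cells and no red ones, and the row of TARBP2 is grey throughout.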

How the data were processed

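For each of 6 libraries the authors deposited raw counts of reads per gene, as whole numbers. The submitters' processing notes name STAR 2.7.11b and the build GRCm39, a mouse genome, and the labels name the mouse, whereas all 30543 identifiers are human Ensembl genes. The counting tool, the handling of strand and of reads matching several genes are not given in the sources used here, so reads from related or antisense genes could be shared. Gene symbols of the 10 members came with their list; 0 identifiers matched the mouse name table used here, so other pathway genes and markers were not analysed here.

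Counts were filtered with filterByExpr, scaled with TMM and tested in R 4.3.3 with edgeR 4.0.16 (glmQLFit, glmQLFTest, Benjamini-Hochberg over all 15736 genes). The log2 fold change intervals (95%) use the quasi-likelihood degrees of freedom, with the standard error taken as the size over the root of F. Log2 CPM used a prior count of 2. The limits of 0.05 and 1 are those the study states for its cohort comparisons. DESeq2 1.42.0, limma 3.58.1 with voom, other scalings and filters, each library left out and the replicate block were alternatives. The tests were checked on simulated data in which no library stood apart and the planted changes were larger than those of the members. That check therefore does not cover the position of si-KRT7 replicate 2 or differences of the members' size. Every pair of genes was counted for the pair ratios, a measure added after the values were seen. The closest pair of libraries had a mean chi-square per gene of 3.70, above sampling noise, so no library was a mere resequencing of another. This value does not tell whether libraries came from the same culture. All 10 members are named. Beside them only the identifier with the largest decrease among genes past the adjusted p and a limit on the mean count is given. The members, tests and lists were chosen with earlier results of these data known.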

Additional observations from a re-analysis of the deposited data

How the results depend on the processing

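Of the 10 genes, 0 passed the adjusted p with all 6 libraries in edgeR and also with library size only, RLE size factors, at least 10 counts in every library, limma-voom, the robust fit and the replicate block. The DESeq2 Wald test and the fit without a filter on low counts each called 1, AGO2, with 1148 and 1347 genes called in all against 325, and limma-voom with sample quality weights called 5, with 6858 in all. With each library left out in turn, the members called numbered from 0 to 5 and all genes called from 6 to 6944, both highest without si-KRT7 replicate 2, and the members without overlap numbered from 2 to 6, with 4 without si-Control replicate 3 (29.8% of all genes). In the fits without si-Control replicate 1, 2 or 3 only 6, 6 and 10 genes were called in all. No member passed a log2 fold change of 1 in any of the 15 alternatives.

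With the replicate block 76 genes passed in all. Correlations between the deviations of libraries with the same number were 0.052, -0.080 and -0.073. Only si-Control replicate 1 correlated best with the library of its own number. The deviations are taken from means of 3 libraries, and si-KRT7 replicate 2 stood apart. These values therefore cannot decide whether libraries with the same number share a batch.

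AGO2, DROSHA, AGO3, TNRC6B, XPO5 and TNRC6A kept their direction in all 15 alternatives, AGO2 with a log2 fold change from 0.37 to 0.64 and an adjusted p up to 0.432, and DROSHA from 0.25 to 0.39 and up to 0.421. The direction turned for DICER1 (0.035) and AGO4 (0.090) without si-KRT7 replicate 2 and, with sample quality weights, to 0.0021 and 0.074, for TARBP2 without si-KRT7 replicate 3 (0.031), and for AGO1 without si-Control replicate 3 (-0.014) or si-KRT7 replicate 3 (-0.056). With a library left out, the log2 fold change ran from -0.27 to 0.035 for DICER1, from -0.26 to 0.031 for TARBP2, from -0.056 to 0.083 for AGO1 and from -0.23 to 0.090 for AGO4. The cause was not tested. With 3 libraries a group, differences within the intervals given, the widest from -0.49 to 0.30 for AGO4, could not be resolved.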
